A study of Mus musculus with 3 samples.

Results

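Open chromatin was described here at the genes of the interleukins and their receptors in the mouse uterus just before implantation. The members were all protein-coding genes of the RefSeq GRCm38 gene table whose symbol starts with Il and a digit, apart from Il6st, the shared gp130 chain. This gave 82 genes of 21523 on the 20 chromosomes that carry peaks: 40 receptor genes, 39 ligand genes and 3 that are neither. Peaks came from FAIRE-seq, in which sheared chromatin is extracted with phenol after crosslinking so that DNA free of nucleosomes stays in the water phase. The material was whole uterus of wild-type C57BL/6J females, 6 to 10 weeks old, mated and untreated, on gestation day 4, in 3 samples of 1 group. The list of 12413 peaks is a single one for the series; values therefore carry no spread between mice, and samples could not be tested against each other.

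Interleukins are secreted proteins through which leukocytes, epithelium and stroma signal to each other. They act on surface receptors built from a chain that binds the ligand and a shared chain that signals, through JAK kinases and STAT factors in most families, and through MyD88, IRAK and TRAF6 proteins in the IL-1 family. In the pregnant mouse uterus, IL-11 acting on Il11ra1 is needed for decidualization, the change of stroma around the implanting embryo, and IL-15 for the uterine natural killer cells. Many ligand genes are switched on only in activated immune or barrier cells, whereas several receptor chains are made by many cell types.

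A smaller share of interleukin genes than of all protein-coding genes had a peak nearby, and a smaller share of ligands than of receptors. A peak overlapping the gene or the 10 kb on either side was found for 23 of the 82 interleukin genes (28.0%), against 57.6% of all protein-coding genes. Receptors had one in 15 of 40 (37.5%) and ligands in 6 of 39 (15.4%), a difference of 22.1 percentage points. At gene ends, meaning within 1 kb of either annotated end, the contrast was sharper: 11 of 40 receptors (27.5%) and 1 of 39 ligands (2.56%) had a peak, against 44.5% of all protein-coding genes. Inside the gene span itself the counts were 12 receptors and 1 ligand, against 48.8% of all protein-coding genes. With flanks of 5 kb they were 14 receptors and 3 ligands, against 54.2%, and with flanks of 50 kb 22 receptors and 18 ligands, against 70.8%. Genes are not replicates, so these are counts of the list with no p-value. The tissue is a mixture, and a gene open in few cells cannot be told apart from one weakly open in many.

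**Figure D1:**
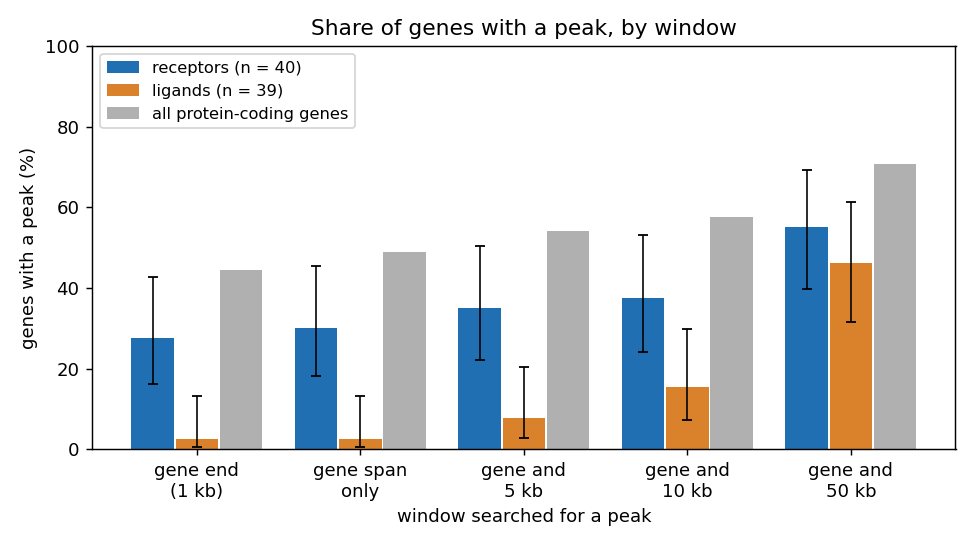
Share of genes (%) with a peak in 5 windows of rising reach, for receptors (left bars), ligands (middle bars) and all protein-coding genes (right bars). Error bars are 95% Wilson intervals over genes. They treat genes as independent, which neighbours in a cluster are not, and hold no spread between mice. Receptors stand above ligands in each window, by 24.9 points at gene ends and by 8.85 points when 50 kb on either side is searched, and both stand below all protein-coding genes.

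Because windows of 10 kb reach into neighbouring genes, each peak was set against the nearest other protein-coding gene end. The 23 genes drew on 27 peaks, and 16 of these lay within 1 kb of an end of another protein-coding gene. Of 18 receptor peaks, 9 had no such neighbour, and of 7 ligand peaks, 2 had none. Counting only peaks without such a neighbour left 7 of 40 receptors (17.5%) and 1 of 39 ligands (2.56%) with a gene-end peak, against 33.2% of all protein-coding genes. With the 10 kb window the counts were 9 receptors (22.5%) and 2 ligands (5.13%), against 42.0%.

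**Figure D2:**
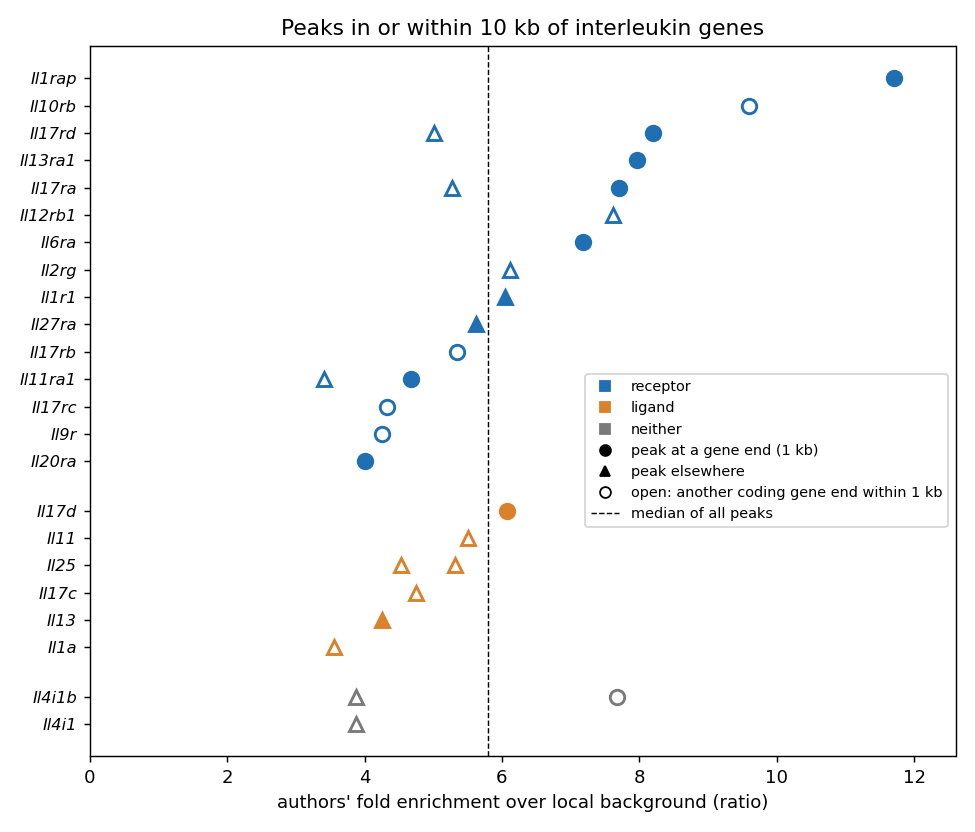
The authors' fold enrichment of every peak in or within 10 kb of an interleukin gene (horizontal axis, ratio), 1 row per gene, receptors above ligands above the genes of neither class. Circles are gene-end peaks, triangles other peaks, open symbols peaks less than 1 kb from an end of a different protein-coding gene, and the dashed line is the median of all 12413 peaks (5.80); 9 receptor peaks, 1 ligand peak and 1 peak of Il4i1b lie to its right.

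The strongest peak lay at an accessory receptor chain, and the next at a shared chain with a close neighbour. Shared chains did not all have a peak of their own, as the peaks near Il2rg and Il12rb1 lay at ends of other genes. Il1rap, the accessory chain used by the receptors of IL-1, IL-33 and IL-36, had the highest at 11.7-fold over local background (chr16:26581379-26581857 in GRCm38.p5, the build of all peak positions, pileup 106), above 96.9% of all peaks. Its summit lay 79 bp inside the gene, and the nearest other protein-coding gene end was 54817 bp away. Il10rb, the chain shared by the receptors of IL-10, IL-22 and the lambda interferons, followed at 9.59-fold (chr16:91406100-91406559), 147 bp inside the gene. An end of Ifnar2, an interferon receptor gene, lay 715 bp from that summit, so the peak may belong to either gene.

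Other receptor chains with a gene-end peak of their own were spread over several families. Il17rd, a member of the IL-17 receptor family also known as an inhibitor of fibroblast growth factor signalling, reached 8.20-fold over 804 bp (chr14:27038837-27039640). Il13ra1, which pairs with Il4ra to bind IL-4 and IL-13, reached 7.96-fold (chrX:36111949-36112357), 25 bp inside the gene. Il17ra, the chain common to IL-17 receptors, reached 7.70-fold (chr6:120463079-120463762). Il6ra, the chain that binds IL-6 before gp130 is engaged, reached 7.18-fold (chr3:89912825-89913388). All 4 were above the median of 5.80 over the whole list. Il17ra and Il17rd each had a second peak within 10 kb, at 5.27-fold and 5.01-fold, whose summits lay 59 bp from an end of Tmem121b and 375 bp from an end of Arhgef3.

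Il11ra1 and Il20ra had weaker gene-end peaks. Il11ra1, the IL-11 receptor chain required for decidualization in mice, stood at 4.67-fold (chr4:41760351-41760622, pileup 42), which exceeded 30.8% of all peaks. Its summit was 64 bp inside the gene, and the nearest end of Galt was 1264 bp away. A second peak within 10 kb of it, at 3.41-fold, lay 116 bp from an end of Galt. Il20ra, a receptor chain for IL-19, IL-20 and IL-24, stood at 4.00-fold (chr10:19712505-19712741), 36 bp from an annotated start.

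The remaining 3 gene-end peaks of receptors had a close neighbour, as that of Il10rb did. The peak at Il17rb, a chain of the IL-25 receptor (5.34-fold, chr14:30008784-30009166), had its summit 93 bp outside that gene and 88 bp from an end of Chdh, a choline dehydrogenase gene. The peak at Il9r (4.25-fold, chr11:32205184-32205580) lay 5018 bp from the annotated start that was matched and 118 bp from an end of Snrnp25. The peak at Il17rc, which pairs with Il17ra (4.33-fold, chr6:113482497-113482949), lay 11238 bp from its annotated start and 663 bp from an end of Creld1. Over all 11 receptor gene-end peaks the median fold was 7.18, against 6.06 over the 9229 gene-end peaks of protein-coding genes.

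Il1r1, the signalling receptor of IL-1, had a peak at an inner start rather than at either end of the gene. It stood at 6.05-fold (chr1:40266443-40266837), 44149 bp from the nearest end and 43 bp from the inner of 2 annotated starts. The outer start had no peak over it. The other receptors with a peak within 10 kb had it outside the gene. For Il12rb1, shared by the receptors of IL-12 and IL-23, it lay 24 bp from an end of Mast3 (7.61-fold), and for Il2rg, the common gamma chain, 78 bp from an end of Med12 (6.12-fold). For Il27ra, an IL-27 receptor chain, it lay 4145 bp from the gene and 4530 bp from Palm3 (5.62-fold).

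Among ligands, Il17d alone had a gene-end peak. Il17d, an IL-17 family cytokine made outside the immune system as well, had a peak of 6.07-fold (chr14:57525246-57525594) with its summit 600 bp inside the gene, beyond the window around its annotated start. Il13, a type 2 cytokine, had a narrow peak of 217 bp, the smallest width in the list, at 4.25-fold (chr11:53636223-53636439). That summit lay 1625 bp outside the gene on the side of its annotated start, and 13192 bp from the nearest other gene end, that of Rad50.

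For the other 4 ligands the peak was at a neighbour. The peak near Il11, the decidualization cytokine, lay 6205 bp outside the gene and 448 bp from an end of Tmem238 (5.51-fold, chr7:4788915-4789656). The peak near Il1a lay 78 bp from an end of Ckap2l (3.55-fold), that near Il17c lay 198 bp from an end of Cyba (4.75-fold), and the 2 near Il25 lay 14 bp and 695 bp from an end of Efs (5.31-fold and 4.53-fold). Over peaks near receptors the median fold was 5.83, and over peaks near ligands 4.75, against 5.80 over the whole list. The order of receptors and ligands turned round among genes of 5 to 50 kb (5.31 near receptors and 5.51 near ligands), and with flanks of 50 kb the medians were 5.38 and 5.28. The median local background was 8.17 near receptors and 9.22 near ligands, against 8.59 over the list, in units of pileup.

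Of the 3 genes in neither class, Il4i1b, a readthrough transcript of Nup62 and Il4i1, had a gene-end peak of 7.68-fold (chr7:44816117-44816864), 185 bp from an end of Nup62. Il4i1b and Il4i1, an amino acid oxidase gene, also shared a peak of 3.87-fold at an end of Akt1s1. Il18bp, the secreted IL-18 binding protein, had none within 10 kb.

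The other 25 receptors and 33 ligands had no peak in this window. Receptors without one included Il4ra, Il15ra, Il1rl1, the IL-33 receptor, Il2rb, Il7r and Il11ra2. Il11ra2 is a close copy of Il11ra1, and the sources used here do not say how reads that match several places were treated. The lack of a peak at Il11ra2 is therefore uncertain, and the same limit holds for the peak at Il11ra1. Ligands without one included several that are made in the uterus or act there: Il1b, Il6, Il10, Il15, Il33, Il34 and Il1rn, the IL-1 receptor antagonist. Among these receptors, the nearest peak was 43.4 kb from Il15ra, 60.6 kb from Il4ra, 138.0 kb from Il1rl1 and 251.1 kb from Il11ra2. Among these ligands, it was 370.6 kb from Il15, 94.1 kb from Il6, 71.8 kb from Il10, 69.3 kb from Il33, 67.2 kb from Il1b, 20.0 kb from Il34 and 16.0 kb from Il1rn. Just beyond the 10 kb limit lay the nearest peaks of Il17re (11.7 kb) among receptors and of Il5 (13.3 kb) among ligands. Among the genes without a peak in the window, the median distance to the nearest one was 100.4 kb for the 25 receptors. For the 33 ligands it was 69.3 kb. The distance was beyond 100 kb for 13 receptors and 10 ligands. The same values were not computed for all protein-coding genes without a peak. With or without a peak, the median distance was 40.5 kb for receptors and 62.5 kb for ligands, against 0.329 kb for all protein-coding genes. The upper quartile was 131.6 kb for receptors and 115.5 kb for ligands, against 75.7 kb for all protein-coding genes.

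Family counts are small and stand beside 57.6% within 10 kb and 44.5% at gene ends over all protein-coding genes. Among IL-17 genes, 4 of 5 receptors and 3 of 6 ligands had a peak within 10 kb, and 4 receptors and 1 ligand had it at a gene end. The peaks of Il17rb, Il17rc, Il17c and Il25 all lay within 1 kb of another gene's end. In the gp130 group the counts within 10 kb were 3 of 5 receptors and 1 of 4 ligands. This group was taken to include Il31 and Il31ra, which had no peak within 10 kb. In the IL-1 family the counts were 2 of 9 receptors and 1 of 10 ligands. Common gamma chain genes had 2 of 7 receptors and 0 of 6 ligands. IL-10 family genes had 2 of 6 and 0 of 5, and IL-12 family genes 1 of 3 and 0 of 3. The peaks near Il2rg, Il9r, Il12rb1, Il10rb, Il11 and Il1a also lay within 1 kb of another gene's end. In the IL-4 and IL-13 group, listed apart from the families above, 1 of 3 receptors and the only ligand, Il13, had a peak. Il4 itself was counted among the common gamma chain ligands and had none within 10 kb. Genes of the beta common chain group (IL-3 and IL-5) had none in 2 receptors and 2 ligands.

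Interleukin genes often stand in clusters. Of 13 runs of members less than 100 kb apart, 8 had no peak between their outer ends, and no share for comparable runs of other genes was computed. The run of 6 genes from Il1f8 to Il1rn, which holds the IL-36 ligands, spanned 198.3 kb without a peak, and the run Il24, Il20, Il19 and Il10 spanned 142.9 kb without one. The run of 6 receptor genes from Il1r2 to Il18rap spanned 467 kb and held 1 peak, that at the inner start of Il1r1. Neighbours in a run share their surroundings, so their lack of peaks is not a set of separate observations.

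Gene length differed between the classes, with a median of 31.8 kb for receptors and 6.60 kb for ligands, against 17.4 kb for all protein-coding genes, and a longer gene offers a wider span to search. Gene-end windows have a fixed width, but their share also rose with length over all protein-coding genes, being 30.0% under 10 kb, 47.7% at 10 to 30 kb and 56.7% over 30 kb. Under 10 kb, 1 of 3 receptors and 0 of 26 ligands had a gene-end peak. At 10 to 30 kb the counts were 5 of 16 receptors and 1 of 8 ligands, and over 30 kb 5 of 21 receptors and 0 of 5 ligands. With the 10 kb flanks, 2 of 3, 7 of 16 and 6 of 21 receptors had a peak in the 3 length classes, and 3 of 26, 3 of 8 and 0 of 5 ligands, against 41.5%, 61.1% and 71.2% of all protein-coding genes.

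**Figure D3:**
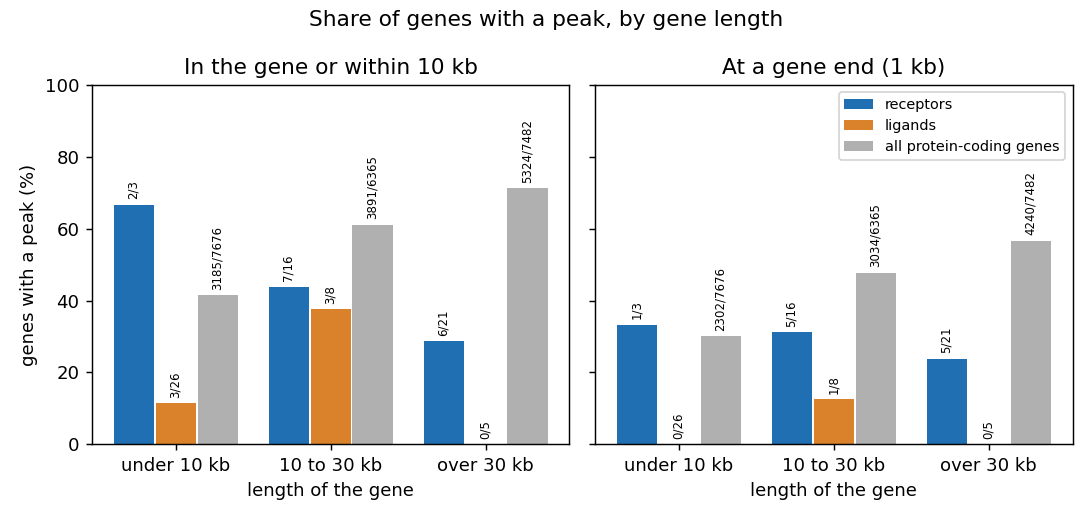
Share of genes (%) with a peak in 3 classes of gene length, with the 10 kb flanks (left panel) and at gene ends (right panel); receptors are the left bars, ligands the middle bars and all protein-coding genes the right bars, with the counts above each bar. Receptors are above ligands in each class and panel, with as few as 3 receptors (under 10 kb) and 5 ligands (over 30 kb) in a class.

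Start sites were examined through RefSeq windows of 300 bases (250 before to 50 after an annotated start, GRCm38.p6), which were matched for 65 of the 82 genes. A peak overlapped 8 of 39 windows of 33 receptors (20.5%) and 0 of 38 windows of 29 ligands, against 38.4% of the windows of all protein-coding genes. The 5 windows under a peak below show receptor starts from the strongest, Il1rap, to Il11ra1, and the 2 last ones, of the ligands Il6 and Il1b, had no peak. They are written 5′ to 3′ on the strand of the gene, and capitals mark CpG dinucleotides.
Il1rap, chr16:26581455-26581754, plus strand: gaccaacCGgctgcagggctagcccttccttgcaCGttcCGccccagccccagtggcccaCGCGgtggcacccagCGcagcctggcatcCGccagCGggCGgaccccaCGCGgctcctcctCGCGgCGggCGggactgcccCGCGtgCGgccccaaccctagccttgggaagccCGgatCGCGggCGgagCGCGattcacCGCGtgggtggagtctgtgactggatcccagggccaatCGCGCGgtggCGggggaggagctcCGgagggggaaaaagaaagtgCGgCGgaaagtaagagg
Il17rd, chr14:27038751-27039050, plus strand: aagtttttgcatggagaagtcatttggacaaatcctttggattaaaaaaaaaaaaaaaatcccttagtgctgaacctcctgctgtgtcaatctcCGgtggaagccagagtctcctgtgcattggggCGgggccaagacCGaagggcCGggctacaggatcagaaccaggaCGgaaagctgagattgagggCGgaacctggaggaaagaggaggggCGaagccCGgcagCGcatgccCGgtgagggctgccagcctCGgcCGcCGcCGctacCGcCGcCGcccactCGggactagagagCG
Il6ra, chr3:89913147-89913446, minus strand: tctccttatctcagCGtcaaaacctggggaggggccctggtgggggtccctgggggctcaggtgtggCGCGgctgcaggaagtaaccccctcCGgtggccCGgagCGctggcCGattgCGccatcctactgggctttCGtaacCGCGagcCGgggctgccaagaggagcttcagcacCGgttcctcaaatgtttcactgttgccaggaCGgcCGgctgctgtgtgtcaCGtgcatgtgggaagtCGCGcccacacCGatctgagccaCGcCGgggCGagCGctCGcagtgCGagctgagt
Il1r1, chr1:40266336-40266635, plus strand: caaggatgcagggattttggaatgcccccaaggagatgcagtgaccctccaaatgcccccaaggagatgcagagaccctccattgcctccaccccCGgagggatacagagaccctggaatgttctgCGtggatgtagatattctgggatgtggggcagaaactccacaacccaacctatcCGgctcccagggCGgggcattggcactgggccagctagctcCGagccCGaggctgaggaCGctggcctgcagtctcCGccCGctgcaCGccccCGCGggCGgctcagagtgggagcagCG
Il11ra1, chr4:41760193-41760492, plus strand: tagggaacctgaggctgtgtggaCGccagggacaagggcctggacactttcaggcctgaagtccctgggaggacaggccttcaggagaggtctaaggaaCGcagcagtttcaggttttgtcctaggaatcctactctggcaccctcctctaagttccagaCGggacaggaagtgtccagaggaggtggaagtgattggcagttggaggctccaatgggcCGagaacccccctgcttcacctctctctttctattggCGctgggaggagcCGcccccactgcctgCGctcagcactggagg
Il6, chr5:30012864-30013163, plus strand: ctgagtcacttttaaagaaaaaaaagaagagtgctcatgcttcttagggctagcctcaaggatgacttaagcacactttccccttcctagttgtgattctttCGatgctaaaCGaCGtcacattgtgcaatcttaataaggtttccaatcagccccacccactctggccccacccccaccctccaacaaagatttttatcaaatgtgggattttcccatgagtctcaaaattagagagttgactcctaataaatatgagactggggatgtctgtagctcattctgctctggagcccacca
Il1b, chr2:129371090-129371389, minus strand: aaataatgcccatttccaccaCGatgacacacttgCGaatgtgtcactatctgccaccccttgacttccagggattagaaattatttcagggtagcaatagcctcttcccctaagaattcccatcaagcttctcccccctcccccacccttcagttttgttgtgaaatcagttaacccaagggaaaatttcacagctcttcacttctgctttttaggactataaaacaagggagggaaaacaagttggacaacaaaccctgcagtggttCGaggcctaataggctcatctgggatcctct

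Capitals are dense in the first 3 windows and sparse in those of Il11ra1, Il6 and Il1b. The Il1rap window had 33 CpG and lay under its peak over all 300 bases. The windows of Il17rd, Il6ra and the inner start of Il1r1 had 19, 25 and 14 CpG, with 214, 242 and 193 bases under the peak. The Il11ra1 window had 7 CpG, the fewest of the 8 receptor windows with a peak, and 142 bases under it. The Il6 and Il1b windows had 3 CpG each.

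Ligand windows held fewer CpG than receptor windows. The median was 7 CpG per window for receptors and 3.5 for ligands, against 13 for all protein-coding genes. Receptor windows with a peak had a median of 22 CpG and those without one 5, against 26 with a peak and 5 without one for all protein-coding windows. Windows with at most 5 CpG made up 43.6% of receptor windows and 81.6% of ligand windows, against 31.7% over all genes. None of these 17 receptor or 31 ligand windows had a peak, and of 6676 such windows over all genes 18 did (0.270%). With 6 to 15 CpG, 3 of 13 receptor windows (23.1%) and 0 of 5 ligand windows had a peak, against 16.9% over all genes. With 16 or more CpG, 5 of 9 receptor windows and 0 of 2 ligand windows had a peak, against 76.1% over all genes. The 4 such receptor windows without a peak were those of Il3ra (35 CpG), Il4ra (25), Il1r2 (16) and Il1rapl2 (16), and the 2 ligand windows those of Il17d (19) and the inner start of Il12a (16). Whether CpG content has a part in the difference between receptors and ligands was not tested.

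**Figure D4:**
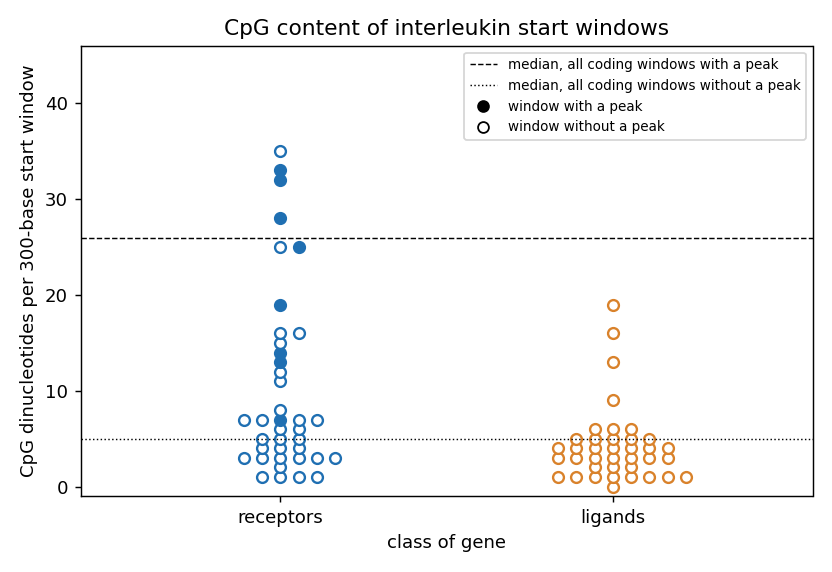
CpG dinucleotides in each 300-base start window (vertical axis) of receptors (left, 39 windows) and ligands (right, 38 windows); filled circles are windows with a peak and open circles windows without, spread sideways for display. The dashed and dotted lines are the medians over all protein-coding windows with a peak (26) and without one (5); the 8 filled circles are all receptors and lie between 7 and 33 CpG.

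Short sequence motifs were counted in the same windows on both strands, each motif on its own, so overlapping matches count for each motif, and windows of 1 gene can overlap. The GC box (GGGCGG) occurred in 17 of 39 receptor windows (43.6%) and 5 of 38 ligand windows (13.2%), against 46.7% of all protein-coding windows. The TATA motif (TATAAA) occurred in 2 receptor windows (5.13%) and 12 ligand windows (31.6%), against 12.7%. The STAT motif (TTCNNNGAA) was found in 5 receptor and 5 ligand windows, against 7.76% of all windows, and the AP-1 motif (TGANTCA) in 6 receptor and 8 ligand windows, against 7.04%. The NF-kB motif was found in 4 receptor and 3 ligand windows, against 4.86%. In the 8 receptor windows with a peak, the GC box occurred in 6, against 78.0% of all protein-coding windows with a peak, and the AP-1 motif in 2, against 3.21%. The TATA and STAT motifs occurred in 0 of the 8, against 4.17% and 5.14%.

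Most listed genes that act downstream of the receptors had a peak. The lists were chosen for what the genes do, but with earlier results of these data known. All 11 JAK and STAT genes had a peak within 10 kb, and 7 had it at a gene end, led by Jak2 (11.2-fold), Jak1 (8.10) and Stat3 (7.15). Of 13 feedback genes such as the SOCS inhibitors, 12 had a peak within 10 kb and 11 at a gene end, led by Socs4 (12.4), Socs6 (9.10), Pias3 (7.77) and Pias1 (7.49). The Socs4 peak lay within 1 kb of another gene's end too. Of 14 genes that carry IL-1 and IL-17 signals, 12 had a peak within 10 kb and 11 at a gene end, led by Traf6 (10.6), Rela (8.13), Tab2 (8.05) and Map3k7 (7.49). Myd88, the IL-1 receptor adaptor, had none at an end but had one within 10 kb. Casp1, which cleaves pro-IL-1 beta, and Traf3ip2 had none in either window. Related cytokines and receptors outside the member rule stood at 11 of 21 within 10 kb and 7 at a gene end, led by Il6st (9.86), Ctf1 (8.13), Csf1 (7.53) and Clcf1 (5.21). Over all protein-coding genes these shares were 57.6% within 10 kb and 44.5% at gene ends.

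Marker genes were examined as a check of the labelled tissue. Of 18 genes that mark uterine tissue, 10 had a peak within 10 kb (55.6%, against 57.6% of all protein-coding genes), among them Pgr, Hoxa10 and Msx1, and 7 had it at a gene end (38.9%, against 44.5%). These shares are near those over all genes and do not set the tissue apart. Of the uterine markers, Esr1, Foxa2, Krt8, Krt18, Acta2, Myh11, Tagln and Vim had none. Of 18 leukocyte markers, 4 had a peak within 10 kb (22.2%), at Cd4, Cd14, Cd68 and Cd79a, and 1 at a gene end (5.56%), that of Cd4, which also lay within 1 kb of a neighbouring gene's end. Ptprc, Cd3e, Itgam and Adgre1, markers of leukocytes, T cells, myeloid cells and macrophages, had none. Many interleukin genes are used mainly by such cells, and the part of cell makeup in the interleukin counts was not tested.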

How the data were processed

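FAIRE-seq DNA was measured in 3 uterus samples, and a single deposited peak table that names no sample was analysed. Tools listed, without versions, in the submitters' processing notes are FastQC, Bowtie2, HOMER and MACS2, and the build is GRCm38.p5. Not given in the sources used here are the call threshold, any input control and the pooling of libraries, and library depth is unknown. The deposited columns, per the file headers, are each peak's pileup, taken here as a coverage signal at the summit, its fold enrichment, taken as a ratio to local background, and its −log10 q-value. The fold is the authors' own value per peak and was used only to describe and rank peaks within the list. The series' growth protocol speaks of 3 mice and its design text of 4.

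Local background was computed as (pileup + 1) / fold − 1. Genes came from a RefSeq table of GRCm38.p6, of which no coordinates are printed; chromosomes 1 to 19 and X were used, without genes that start below 3 Mb. A peak counted for a gene when it shared a base with the gene and 10 kb on either side, or with 1 kb around either end. It counted for every gene it reached. RefSeq start windows carry the build GRCm38.p6. The members and lists were chosen with earlier results of these data known. Genes named in full were those with a gene-end peak, those with the 5 strongest peaks, and 17 with known roles in the uterus; others, such as the start windows with 16 or more CpG, were chosen after their values were seen. A value that this rule selects in the pathway lists is not reported here. Overlaps were checked on simulated peaks. Intervals of shares are 95% Wilson intervals over genes, and those of differences combine the Wilson intervals of receptors and ligands. Intervals of medians are binomial ones over ranked peaks. All treat genes or peaks as independent and hold no spread between mice. Python 3.11.15, pandas 2.3.3 and SciPy 1.17.1 were used.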

Additional observations from a re-analysis of the deposited data

How the results depend on the processing

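The share of receptors with a peak stayed above that of ligands under each of the alternatives run. The difference was 8.85 to 27.4 percentage points over the gene, with or without flanks, and 12.4 to 24.9 points at gene ends. Of 70 recomputed values, 56 stayed within the 95% binomial interval of the main value and 14 moved beyond it. Only the receptor minus ligand differences could change sign, and none did. Staying within an interval is a weak mark. That of the difference within 10 kb (22.1 points) ran from 2.57 to 39.6. That of the ligand median fold (3.55 to 6.07) spanned all 7 peaks, so dropping peaks could not take the median outside. The median fold of peaks near receptors was above that near ligands except among genes of 5 to 50 kb, where it was 5.31 near receptors and 5.51 near ligands; the cause was not tested. The 14 were shares with a peak near the gene. Without flanks, the share was 17.1% of interleukin genes and 2.56% of ligands, against 48.8% of all protein-coding genes. With 50 kb on either side, it was 52.4% of interleukin genes, 55.0% of receptors and 46.2% of ligands, against 70.8%. With the 6207 peaks at or above the median fold, it was 13.4% of interleukin genes, 22.5% of receptors and 2.56% of ligands, against 36.2%. With those at or above the median −log10 q, it was 13.4%, 20.0% and 5.13%, against 35.9%. Without peaks at ends of protein-coding genes other than members, it was 13.4%, 22.5% and 5.13%. Under the similar rule used above, which leaves out peaks near any end but the gene's own, these shares were the same. The share of all protein-coding genes was then 42.0%. These alternatives search more or less sequence or keep fewer peaks by construction. The 30 peaks whose local background was over 5 times the median included none within 10 kb of an interleukin gene. The highest local background there was 12.2, against a median of 8.59 over the list. Leaving those 30 out could therefore change no share within 10 kb or at gene ends. No paired analysis was possible because the table names no sample, and for the same reason no mouse could be left out in turn. Without depth, a missing peak says only that none was called there. Medians over ligand peaks rest on 7 peaks or fewer, apart from the 36 within 50 kb.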
